A study of Homo sapiens with 4 samples.

Results

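The CXC chemokines CXCL1, CXCL2, CXCL3, CXCL5, CXCL6 and CXCL8 and the CC chemokine CCL20 were followed in a human line of hepatocellular carcinoma cells, Huh-7, with and without transforming growth factor beta (TGF-beta). Members were found by gene symbol, current or older (IL8 for CXCL8), in the platform annotation, which gave 17 of 22215 probe sets, a probe set being the group of short probes that reports 1 transcript. These stand for 7 of the 12165 genes that could be named. The 7 genes were proposed after the response of some of them to TGF-beta was known, so their values in that comparison are a description and carry no test.

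There were 4 Affymetrix arrays, 2 of untreated Huh-7 cells and 2 of Huh-7 cells given TGF-beta, all harvested at 48 h. All cells grew in medium with 10% heat-inactivated fetal bovine serum, and RNA came from confluent dishes. No source used here states the TGF-beta dose. Separate cultures behind the arrays of a group are not mentioned in the labels, so errors and p-values reflect the spread between these arrays alone, which may be technical.

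Chemokines are small secreted proteins that direct the migration of leukocytes. The 6 CXC chemokines here belong to the group that attracts neutrophils through the receptors CXCR1 and CXCR2, while CCL20 attracts lymphocytes and immature dendritic cells through CCR6. Their genes are classical targets of NF-kB, a transcription factor that tumour necrosis factor and interleukin 1 activate, and their mRNAs are short-lived because of AU-rich elements. Hepatocytes and liver tumour cells are known sources of CXCL8 and CCL20 in inflammation.

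In the RefSeq order of protein-coding genes on chromosome 4, CXCL8, CXCL6, PF4V1, CXCL1, PF4, PPBP, CXCL5, CXCL3 and CXCL2 follow one another, whereas CCL20 lies on chromosome 2. The promoters are shown because all 6 CXC genes hold the same NF-kB letters at a similar place. Their values on the arrays differed from gene to gene, although a change in the dim CXCL3 could be hidden. Any part of the motif in these values was not tested. Windows run from 250 bases before to 50 bases after the RefSeq start (build GRCh38.p14), and a RefSeq promoter was found for 7 of 7 genes. Sequences are 5′ to 3′ on the gene's strand, and capitals mark matches to NF-kB motifs (GGAATTTCC, or GGGAAAACC in CCL20) and to the AP-1 motif TGACTCA. The windows of CXCL8 (chr4:73740319-73740618, plus strand), CXCL1 (chr4:73869143-73869442, plus strand) and CXCL2 (chr4:74099146-74099445, minus strand), the 3 CXC genes with higher values after TGF-beta, are given whole.
CXCL8: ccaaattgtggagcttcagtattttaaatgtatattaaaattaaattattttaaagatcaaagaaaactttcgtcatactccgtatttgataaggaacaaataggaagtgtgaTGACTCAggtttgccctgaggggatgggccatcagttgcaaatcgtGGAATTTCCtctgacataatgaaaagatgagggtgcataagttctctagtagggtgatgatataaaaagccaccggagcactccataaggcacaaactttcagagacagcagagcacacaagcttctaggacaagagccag
CXCL1: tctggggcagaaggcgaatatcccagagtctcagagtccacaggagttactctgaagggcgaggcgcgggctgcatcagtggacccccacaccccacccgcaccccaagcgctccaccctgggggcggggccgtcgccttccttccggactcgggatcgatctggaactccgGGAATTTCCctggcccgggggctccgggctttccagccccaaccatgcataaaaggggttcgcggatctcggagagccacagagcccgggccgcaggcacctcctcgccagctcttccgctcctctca
CXCL2: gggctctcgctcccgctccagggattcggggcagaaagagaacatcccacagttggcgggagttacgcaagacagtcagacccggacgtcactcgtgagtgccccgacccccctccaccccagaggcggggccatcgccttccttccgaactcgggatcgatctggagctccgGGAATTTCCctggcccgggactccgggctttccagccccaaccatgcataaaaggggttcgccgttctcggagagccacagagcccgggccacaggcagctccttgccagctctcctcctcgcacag

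Shorter stretches around the motif are given for CXCL3 (chr4:74038728-74038797, minus strand), CXCL5 (chr4:73998728-73998797, minus strand), CXCL6 (chr4:73836559-73836628, plus strand) and CCL20 (chr2:227813732-227813801, plus strand).
CXCL3: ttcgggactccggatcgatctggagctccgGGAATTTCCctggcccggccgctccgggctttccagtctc
CXCL5: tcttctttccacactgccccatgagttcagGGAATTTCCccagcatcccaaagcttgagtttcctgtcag
CXCL6: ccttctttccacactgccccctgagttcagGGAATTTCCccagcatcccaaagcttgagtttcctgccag
CCL20: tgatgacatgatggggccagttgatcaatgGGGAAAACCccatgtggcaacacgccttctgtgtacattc

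Motifs were searched on both strands. GGAATTTCC was in 6 of 7 promoters, those of all CXC genes here, and in 0.461% of 35116 RefSeq promoters of the same length. Its first base lay at -91 in CXCL8, -78 in CXCL1, -77 in CXCL2, -78 in CXCL3, -90 in CXCL5 and -89 in CXCL6, counted from the start site. CCL20 held GGGAAAACC from -80 to -72, letters found in 0.439% of promoters and searched for after its sequence was seen.

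Other motifs were less widely shared. TGACTCA was in CXCL8 only, at -137 to -131, against 4.95% of all promoters. The TATA motif TATAAA was in CXCL8 and CCL20 (11.5% of all promoters) and the GC box GGGCGG in CXCL1, CXCL3 and CXCL6 (45.0%). For SMAD proteins, the transducers of TGF-beta, the short motif CAGAC was in CXCL2 and CXCL5 (45.3% of all promoters) and the palindrome GTCTAGAC in 0 of 7 (0.202%). Matches are letters in a window and say nothing of binding in these cells.

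**Figure D1:**
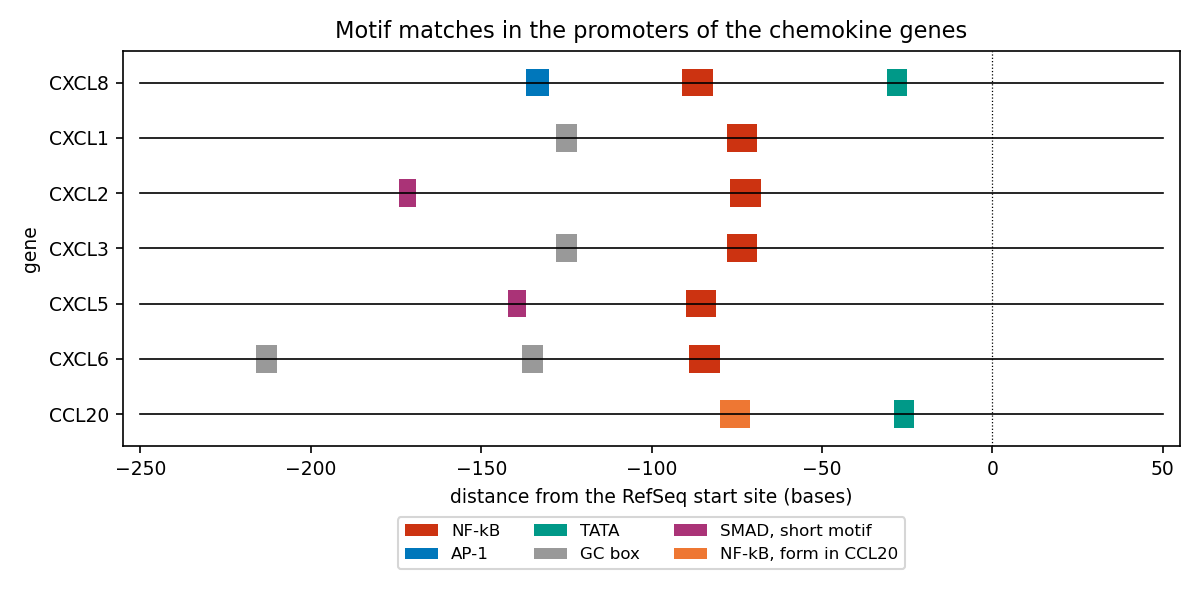
Motif matches on either strand in the 7 promoters, plotted by distance from the RefSeq start in bases, 1 line a gene and 1 colour a motif. NF-kB matches, in either form, are in all 7 genes and start between -91 and -77, while the AP-1, TATA, GC box and SMAD matches are each in 1 to 3 genes.

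By likeness, promoters of the CXC genes fell into a pair and a trio, with CXCL8 apart. In global alignments, CXCL1 and CXCL3 had 82.5% identical columns, CXCL2 and CXCL3 73.7%, CXCL1 and CXCL2 69.8%, and CXCL5 and CXCL6 83.1%. The CXCL8 promoter had 43.0 to 44.7% identity with those of the other CXC genes, so it shares the NF-kB letters but little else. CXCL1, CXCL2 and CXCL3 share an unbroken run of 23 bases around the motif, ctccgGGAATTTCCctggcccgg.

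On the arrays, 2 of 9 probe sets annotated to CXCL8 and the single probe sets of CXCL1, CXCL2 and CCL20 were higher after TGF-beta, while those of CXCL3, CXCL5 and CXCL6 overlapped between groups. Intensities are on a linear scale and can be compared between arrays for 1 probe set, not between genes. The median of all probe sets was 50.1 to 51.0 on the 4 arrays, and 8 of the 17 member probe sets lay above that median on average. Log2 differences are TGF-beta minus untreated, and their standard errors (SE) come from a limma fit over all probe sets, with 2 arrays per group.

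CXCL8 (interleukin 8, the classical neutrophil attractant) had its brightest probe set, 202859_x_at, at intensities of 1275 and 1179 untreated and 3249 and 2825 treated. Both treated arrays were far above both untreated ones, and the smallest ratio of a treated to an untreated array was 2.22. Its log2 mean went from 10.26 ± 0.08 to 11.57 ± 0.14 (SD, n = 2 each), a difference of 1.31 ± 0.12 (SE) or 2.47-fold. The other bright probe set, 211506_s_at, read 857 and 716 untreated against 2041 and 2013 treated, a log2 difference of 1.37 ± 0.12 (2.59-fold). Both bright probe sets of CXCL8 thus gave values within 1 SE of each other.

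The other 7 probe sets listed under CXCL8 were all dimmer than the median of all probe sets, at 20.7 to 49.8 on any array. Their log2 differences ran from -0.21 to 0.21 with a median of -0.04, and in 6 of the 7 the groups overlapped. The exception, 211650_x_at, read 26.2 and 28.4 untreated and 23.3 and 23.7 treated, so it was lower. Of the 9, only 202859_x_at is tied in the annotation to a RefSeq transcript of CXCL8, and the tables used here do not identify the accessions behind the others. A further 4 probe sets name CXCL8 among 5 to 14 genes, with 1 to 9 immunoglobulin genes among them. These multi-gene probe sets read 21.0 to 40.7 and gave log2 differences of -0.11 to 0.14, and they are not counted among the 17. With all 9 probe sets averaged, the log2 difference was 0.28, against 1.31 and 1.37 for the bright ones. The 7 dim ones weigh most in that average. Their annotation to CXCL8 could not be checked here and may be wrong, so the average may not be a value of CXCL8. The value for this gene thus rests on the bright ones.

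CXCL1 (GRO-alpha, a neutrophil attractant and melanoma growth factor) has 1 probe set, which read 315 and 368 untreated and 791 and 832 treated. The groups were well apart, with a smallest treated to untreated ratio of 2.15. The log2 mean went from 8.41 ± 0.16 to 9.66 ± 0.05 (SD, n = 2 each), a difference of 1.25 ± 0.12 (SE) or 2.38-fold.

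CXCL2 (GRO-beta, a close paralogue of CXCL1) read 69.8 and 57.5 untreated and 179 and 154 treated on its 1 probe set. Untreated cells were thus only just above the median of all probe sets, and treated cells clearly above it. The log2 mean went from 5.98 ± 0.20 to 7.37 ± 0.16 (SD, n = 2 each), a difference of 1.39 ± 0.14 (SE) or 2.62-fold. Its probe set, 209774_x_at, is of the x_at kind, in which some probes can match related transcripts, and whether signal from CXCL1 or CXCL3 is part of this value was not tested. The brightest CXCL8 probe set is of that kind too, and the other bright one is not.

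CXCL3 (GRO-gamma, the third of these paralogues) read 30.7 and 32.3 untreated and 38.3 and 30.9 treated. All 4 values were below the median of all probe sets and 1 treated array lay under one of the untreated arrays. The log2 difference was 0.13 ± 0.13 (SE), and it was -0.03 without TGF-beta array 1. Signal this close to background can hide a change, so the value does not show that CXCL3 was unaffected.

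CXCL5 (ENA-78, a neutrophil attractant of epithelial cells) has 3 probe sets of very different brightness. The brightest, 214974_x_at, read 731 and 749 untreated and 693 and 750 treated (log2 difference -0.04 ± 0.11, SE). The next, 215101_s_at, read 212 and 186 against 208 and 220 (0.10 ± 0.11). The dimmest, 207852_at, read 27.4 and 23.5 against 24.4 and 26.6 (0.01 ± 0.12). All 3 overlapped between groups, the probe set tied to the RefSeq transcript is the dim one, and the brightest is of the x_at kind, open to related transcripts.

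CXCL6 (GCP-2, the closest relative of CXCL5) read 145 and 152 untreated and 140 and 148 treated, with a log2 difference of -0.04 ± 0.11 (SE). Its arrays were above the median of all probe sets and the groups overlapped. The bright probe sets of CXCL5 and that of CXCL6 therefore had room to move in either direction, unlike that of CXCL3.

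CCL20 (MIP-3-alpha) was bright already in untreated cells, at 3866 and 3923, and read 5724 and 6290.1 after TGF-beta. The groups did not overlap and the smallest ratio was 1.46. The log2 mean went from 11.93 ± 0.01 to 12.55 ± 0.10 (SD, n = 2 each), a difference of 0.62 ± 0.11 (SE) or 1.54-fold.

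**Figure D2:**
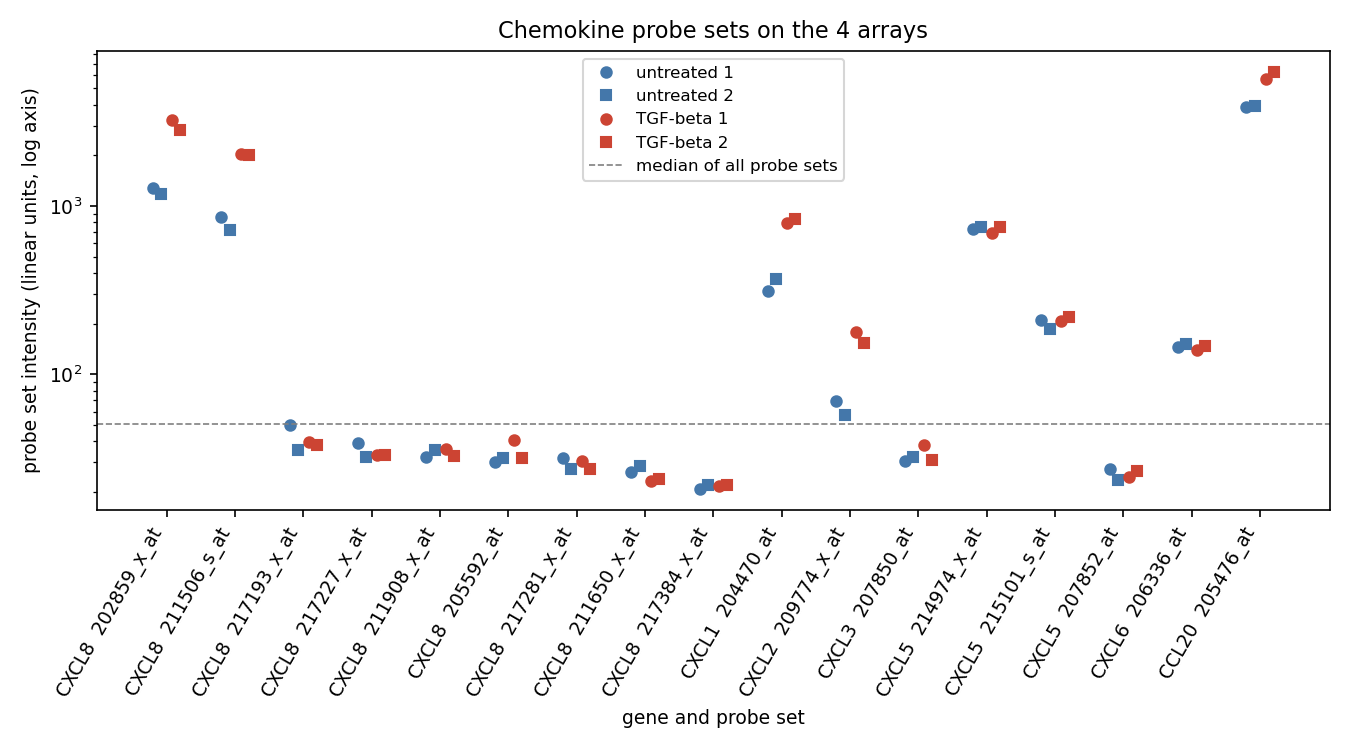
Intensity of the 17 chemokine probe sets on the 4 arrays (log axis), with untreated arrays in blue, TGF-beta arrays in red and the median of all probe sets as a dashed line. Red points stand clear above blue ones for 2 CXCL8 probe sets, CXCL1, CXCL2 and CCL20, and 7 probe sets listed under CXCL8 lie under the dashed line.

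A probe set was called changed at an adjusted p under 0.05 (limma, Benjamini-Hochberg over all 22215 probe sets). By this rule 4 of the 17 member probe sets were called, all higher, against 0.855% of all probe sets in either direction, 0.41% upward and 0.446% downward. They were the 2 bright ones of CXCL8 and those of CXCL1 and CXCL2. Groups did not overlap in 6 of 17, 5 higher and 1 lower, against 47.1% of all probe sets (22.2% higher and 24.9% lower). Because these genes were chosen on this comparison, nothing is read from either count. CCL20 was outside the threshold over all probe sets and inside it in the fit with 1 probe set per gene (1.22% of genes called). The median log2 difference was 0.05 over the 17 probe sets and 0.62 over the brightest of each gene, against -0.01 over all 12165 genes. Among these genes, ordered from the highest log2 difference, CXCL2 stood at rank 9, CXCL8 at 12, CXCL1 at 13 and CCL20 at 177.

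The calls depended on the arrays. Without TGF-beta array 1 or without TGF-beta array 2, limma called 0 probe sets of any gene (2251 and 2712 with unadjusted p below 0.05), and without untreated array 1 or 2 it called 312 or 680 in place of 190. Sizes moved less, since over these 4 fits the log2 difference was 1.20 to 1.41 for the brightest CXCL8 probe set, 1.14 to 1.37 for CXCL1, 1.25 to 1.53 for CXCL2 and 0.56 to 0.69 for CCL20.

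**Figure D3:**
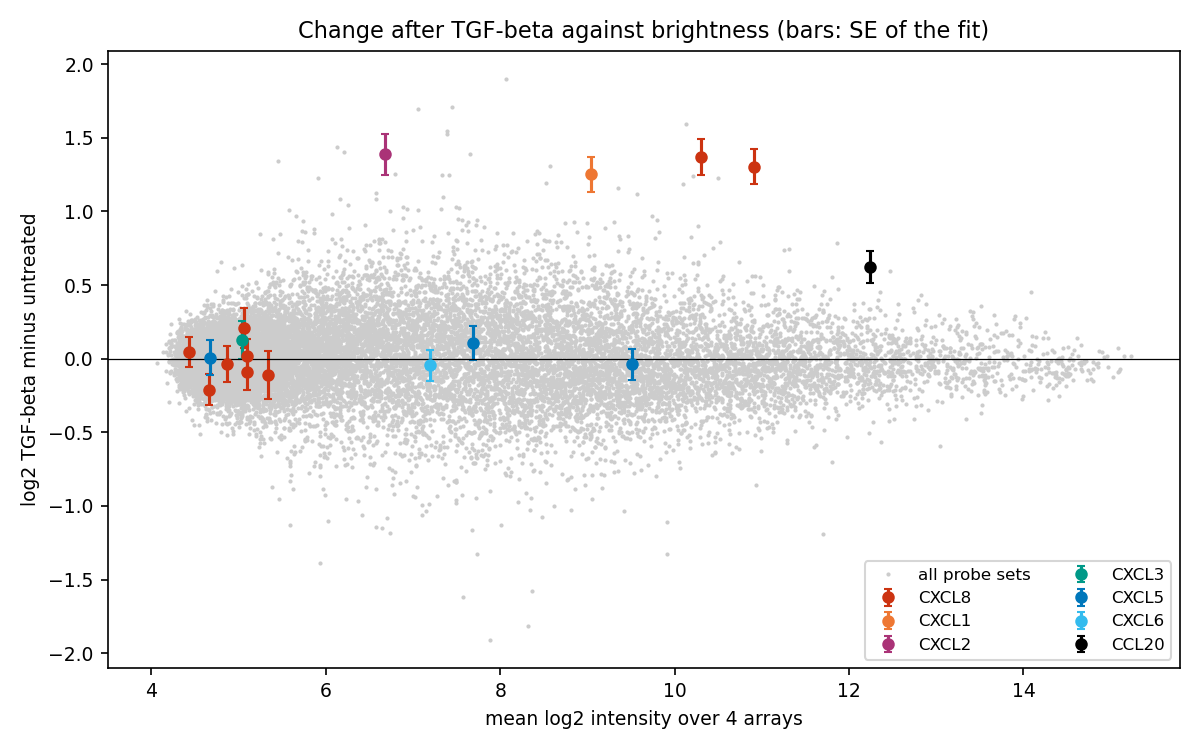
Log2 difference (TGF-beta minus untreated) against mean log2 intensity for all 22215 probe sets (grey) and the 17 chemokine probe sets (coloured by gene, bars are the SE of the fit). The bright CXCL8 probe sets, CXCL1 and CXCL2 lie at 1.25 to 1.39, and CCL20 at 0.62 among bright probe sets. The dim probe sets at the left, which include the other CXCL8 ones, lie between -0.21 and 0.21.

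Neighbours in the chromosome 4 cluster differed from one another. CXCL8, CXCL1 and CXCL2 lie among genes with small values: PF4V1, PF4 and PPBP, chemokines of platelets, had log2 differences of 0.06 ± 0.11, 0.14 ± 0.12 and 0.03 ± 0.11 (SE), and MTHFD2L, a mitochondrial folate enzyme next to CXCL2, -0.03 ± 0.11. None of these 4 was called (limma adjusted p 0.639 to 0.938), and PF4V1 and PPBP were dim, at untreated log2 means of 4.49 and 4.71.

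The NF-kB letters also stand in promoters of other measured genes. Of 57 measured genes outside the 7 whose promoter holds GGAATTTCC, 1 was called higher and 0 lower, with a median log2 difference of -0.003. That gene is PLLP (plasmolipin, a membrane protein of myelin and epithelia), at 1.03 ± 0.14 (SE, limma adjusted p = 0.0358) on its brighter probe set and -0.26 ± 0.15 on the dim one. Over all 9704 measured genes outside the 7 with a promoter, 51 were called higher and 50 lower.

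The genes of the surrounding pathway were counted by the brightest probe set of each gene, against 1.04% of genes called over the table (0.551% higher and 0.493% lower). Some genes stand in more than 1 list. An unadjusted p below 0.05 (limma) was common, in 3612 of all 22215 probe sets. In the fit with the brightest probe set of each gene it was found in 2184 of 12165 genes. Counts at that level in the lists below are to be read against these shares. Among 23 measured chemokine receptors and co-receptors 1 was called higher, 0 lower and 22 were not called, with a median log2 difference of 0.02 (-0.005 under median centring). The receptors of the chemokines described here were dim or variable. CXCR1 read 33.3 and 35.5 untreated and 33.2 and 38.1 treated, CXCR2 31.2 and 29.8 against 26.7 and 26.1, and CCR6 50.8 and 67.4 against 78.4 and 44.4. Their log2 differences were 0.05 ± 0.12, -0.21 ± 0.10 and 0.01 ± 0.26 (SE), and none was called (limma adjusted p 0.891, 0.383 and 0.991). The called receptor was CXCR4, which binds CXCL12 and none of the 7, at 71.7 and 76.6 untreated and 227 and 253 treated (1.69 ± 0.11, limma adjusted p = 0.0105), with 1.08 and 0.75 from its other probe sets.

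Other chemokines had 0 calls. In 9 measured CXC chemokines outside the 7 the median was 0.03, with 0 past even an unadjusted p under 0.05 and 8 of 9 dimmer than the median of all probe sets. CXCL9, an interferon-induced chemokine, had the smallest p of that list at -0.17 ± 0.12 (SE, limma adjusted p = 0.561). In 20 CC, XC and CX3C chemokines the median was -0.004, with unadjusted p below 0.05 in 0 higher and 1 lower (limma), and 16 of them were dim. That one was XCL2 (lymphotactin family), at -0.35 ± 0.13 (limma adjusted p = 0.232). For these dim genes a change may not have been measurable.

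Inducing cytokines, their receptors and adaptors had 1 call higher among 33 measured genes, 0 lower and 32 not called, with a median of 0.01 (-0.006 under median centring). The call was IRAK1, a kinase of interleukin 1 and Toll-like receptor signalling, which read 493 and 429 untreated and 970 and 793 treated (0.93 ± 0.14, SE, limma adjusted p = 0.0426). Of the cytokines, IL18 (interleukin 18) was bright, at 896 and 925 untreated and 932 and 1166 treated (0.20 ± 0.13, limma adjusted p = 0.532), while TNF, IL1B and IL6 were dim. TNF (tumour necrosis factor) stood at -0.06 ± 0.11 and IL1B (interleukin 1 beta) at -0.21 ± 0.11. IL6 (interleukin 6) read 27.1 and 27.3 untreated and 32.6 and 38.1 treated, with 0.37 ± 0.12 and a limma adjusted p of 0.176.

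NF-kB subunits, kinases and inhibitors had 0 calls among 21 measured genes (limma, with unadjusted p below 0.05 in 5 higher and 2 lower), with a median of 0.13 (0.07 under quantile normalization). Of the 21, 15 had positive values, against 48.6% of all genes. Such a share was not particular to this list. Positive values were also found in 9 of 12 AU-rich decay and stability factors, 12 of 16 TGF-beta/SMAD targets and 7 of 9 other CXC chemokines. Among other NF-kB target genes they were in 13 of 27. BCL3, an atypical IkB protein that co-regulates NF-kB, had the smallest p (limma adjusted p = 0.0597). It read 137 and 92.1 untreated and 222 and 232 treated, a log2 difference of 1.02 ± 0.18 (SE). Its other probe set gave 0.33. NFKBIA (IkB-alpha, the inhibitor that NF-kB itself induces) read 1442 and 1646 untreated and 2053 and 1969 treated, a log2 difference of 0.38 ± 0.11 with a limma adjusted p of 0.155. RELA (the p65 subunit) stood at 0.34 ± 0.14 (limma adjusted p = 0.282), and at 0.45 ± 0.12 on its other, dimmer probe set. NFKB1 (the p105 precursor of p50) stood at 0.07 ± 0.10 (limma adjusted p = 0.808). On the brightest probe sets, NFKBIA and RELA arrays did not overlap between groups, as in 47.1% of all probe sets.

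Other NF-kB target genes had 0 calls higher and 1 lower among 27 measured (unadjusted p below 0.05 in 5 higher and 2 lower), with a median of -0.01 that became 0.002 under quantile normalization. The call was VCAM1, an adhesion molecule for leukocytes, which read 259 and 228 untreated and 143 and 148 treated (-0.74 ± 0.11, SE, limma adjusted p = 0.0454), opposite in sign to the 4 chemokines with higher values.

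Among 15 AP-1 and C/EBP factors, which act with NF-kB at chemokine promoters, 1 was called higher, 0 lower and 14 were not called, with a median of 0.03. CEBPD (C/EBP-delta) read 365 and 411 untreated and 741 and 639 treated, a log2 difference of 0.83 ± 0.12 (SE, limma adjusted p = 0.0445), while its 2 dim probe sets gave 0.22 and 0.11. Without adjustment, 5 genes of this list with p below 0.05 were higher and 3 lower. Factors of AU-rich mRNA decay and stability had 0 calls among 12 (limma, with unadjusted p below 0.05 in 3 higher and 1 lower) and a median of 0.22. KHSRP, a decay-promoting protein, had the smallest p at 0.51 ± 0.10 (limma adjusted p = 0.0691), and ZFP36 (tristetraprolin, which binds AU-rich elements and speeds decay) stood at 0.46 ± 0.13 (limma adjusted p = 0.133).

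**Figure D4:**
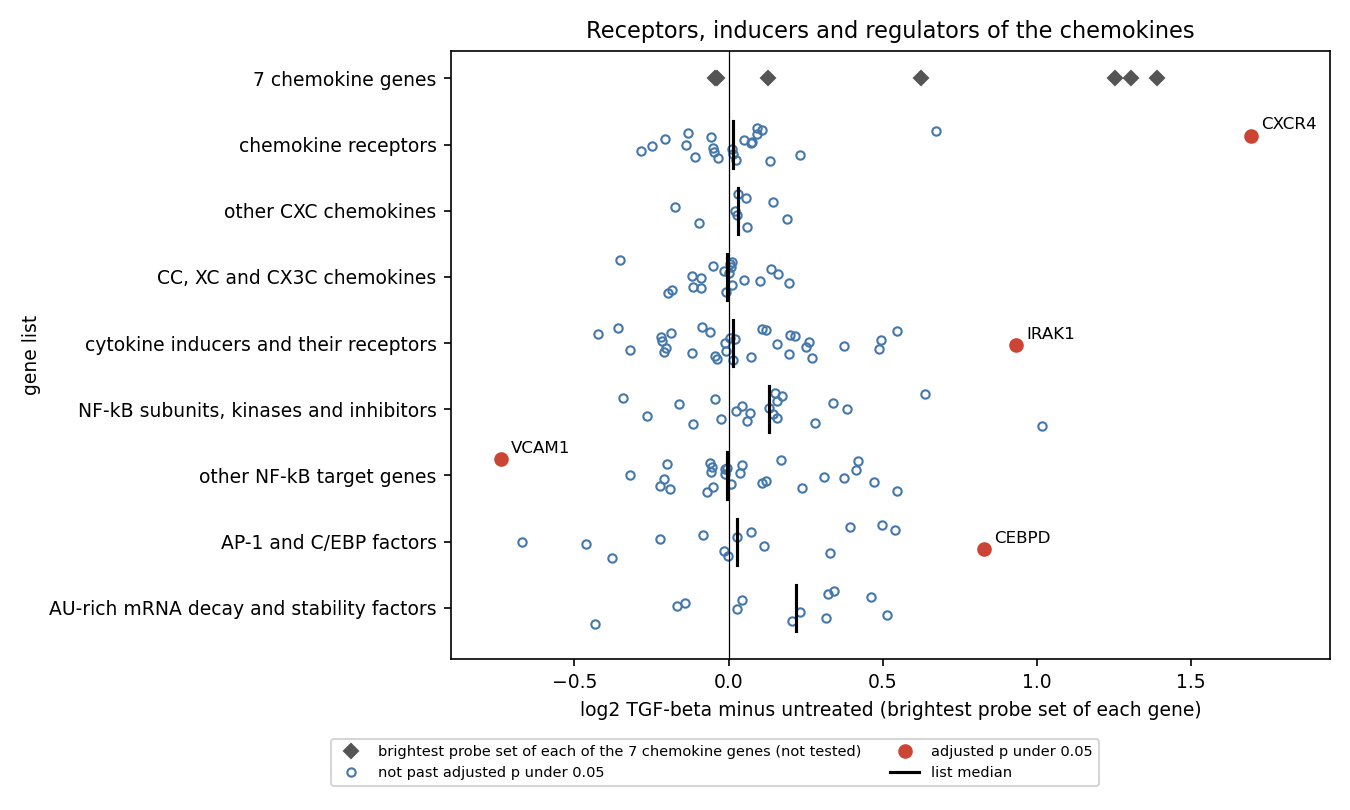
Log2 difference (TGF-beta minus untreated) of the brightest probe set of each gene, 1 line a gene list, with called genes filled in red and named, others open, and the list median as a bar. CXCR4, IRAK1 and CEBPD are called higher and VCAM1 lower, and 3 of the 7 chemokine genes (grey diamonds) lie above 1.2. The diamonds are marked as not tested because these genes were chosen on this comparison, and their calls are not drawn.

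Genes with the most similar pattern were found by the Euclidean distance between log2 profiles over the 4 arrays, each profile centred on its own mean. The 3 single-gene probe sets outside the 7 genes closest to the brightest of CXCL8 were those of DPYSL3 (a cytoskeleton-associated protein), CYP3A7 (a fetal cytochrome P450) and CDC42EP4 (a CDC42 effector), at distances of 0.19, 0.26 and 0.27. CXCL2 lay at 0.14 from CXCL8 and CXCL1 at 0.31. Closest to CXCL1 were MAFF (a small MAF transcription factor, 0.16), AFM (afamin, a plasma protein, 0.24) and a probe set of THBS1 (thrombospondin 1, 0.24). Closest to CXCL2 were DPYSL3 (0.21), TUBA1A (an alpha-tubulin, 0.28) and GPX2 (a glutathione peroxidase, 0.29). With 4 arrays such a distance reflects mostly the difference between groups, and many probe sets of like size would be near.

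The arrays carried hepatocyte transcripts at high levels, with log2 means of 15.05 untreated and 15.12 treated for ALB (albumin) and 14.55 and 14.61 for AFP (alpha-fetoprotein). Of 16 measured TGF-beta/SMAD target genes 0 were called (limma, with unadjusted p below 0.05 in 3 higher and 0 lower), and the feedback inhibitors SMAD7 and SKIL had log2 differences of -0.03 ± 0.13 and 0.06 ± 0.16 (SE). The smallest p of that list was that of THBS1 (thrombospondin 1, 0.73 ± 0.14, limma adjusted p = 0.0666) on its brightest probe set. A dimmer THBS1 probe set was called, at 1.05 ± 0.12 (limma adjusted p = 0.0233), and its other 3 gave 0.97, 0.44 and 0.17, so the count of 0 holds for the brightest probe sets only. Of 8 measured hepatocyte markers APOA1 (apolipoprotein A-I) was called, at 0.74 ± 0.11 (limma adjusted p = 0.0454), with unadjusted p below 0.05 in 2 higher and 1 lower, the latter TTR (transthyretin, -0.63 ± 0.11, limma adjusted p = 0.0533). Quantile normalization ended the APOA1 call, as did leaving out untreated array 1 or either TGF-beta array. Markers of other cell types were dim, in 13 of 14 measured neutrophil and leukocyte genes, 8 of 10 of fibroblasts and 7 of 7 of endothelium. The fibroblast gene LUM (lumican, a matrix proteoglycan) was bright, with log2 means of 12.76 untreated and 12.78 treated. Called genes were 0 among 10 fibroblast and 7 endothelial markers (limma, with unadjusted p below 0.05 in 0 higher and 3 lower, COL1A1, DCN and PECAM1). These 3 were dim. Their other probe sets gave -0.15 to 0.16 for COL1A1, -0.19 to -0.00 for DCN and -0.43 and -0.09 for PECAM1. The leukocyte markers summed to 446 to 450 in untreated and 504 to 526 in treated cells. The defining gene PTPRC (CD45) read 28.4 to 31.7 over the 4 arrays, among the dim probe sets. In that list CD14, a lipopolysaccharide co-receptor that hepatocytes also make, was the 1 call, at 75.6 and 75.4 untreated and 146 and 157 treated (2.01-fold, limma adjusted p = 0.0185). Without CD14 the other 13 summed to 370 to 374 untreated and 357 to 369 treated.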

How the data were processed

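RNA from 2 untreated and 2 TGF-beta-treated Huh-7 samples was measured on 4 arrays. The deposited table holds 1 linear intensity for each probe set and array. The affy package is named, without a version, in the submitters' processing notes, and how background was corrected and probes were summarised is not stated in the sources used here. Quartiles were nearly equal between arrays (lower 28.8 to 29.2, upper 305 to 308), so no scaling was added, and intensities were converted to log2 without an offset.

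Of 22215 probe sets the platform annotation, which can be old, gives 1 gene to 19724, several to 568 and none to 1923, and 19707 were updated to a current symbol through a RefSeq table (GRCh38.p14). All probe sets entered 1 fit with limma 3.58.1 (R 4.3.3), lmFit and eBayes, with Benjamini-Hochberg adjustment and a threshold of 0.05. Moderation gave 7.43 degrees of freedom, 5.43 of them from the prior. Precision is limited by the number of arrays.

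The members and gene lists were chosen with earlier results of these data known. Named genes were every member, up to 4 called genes per list and direction or the smallest p in a list with none, a few defining genes, and the 3 nearest profiles to CXCL8, CXCL1 and CXCL2. PLLP, MTHFD2L and the platelet chemokines were named after their values were seen. Promoters came from RefSeq and were aligned with biopython 1.88 (match 1, mismatch -1, gap opening -3, gap extension -0.5). Plots used matplotlib 3.10.9. The procedure was tested on simulated data. Alternatives covered normalization, an offset of 32, dim probe sets, probe sets per gene, the replicate block, the variance prior and each array left out.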

Additional observations from a re-analysis of the deposited data

How the results depend on the processing

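The count of called probe sets, 190 over all 22215, was 96 under quantile normalization, 7 with an offset of 32 before log2, 73 of 11108 when probe sets dimmer than the median were left out, and 750 with an intensity trend and robust prior. It was 977 with the replicate block, that is, with the array number as a block. No culture or day shared by same-numbered arrays is stated. Deviations of same-numbered arrays from their group means correlated at -0.007, a single value that cannot show whether such a pairing exists. Leaving out 1 array gave 0 to 680. Median centring gave 220, the brightest probe set per gene 149 and the mean of probe sets per gene 162, each within 1.5 times. A fit that leaves out 1 array assumes that the lone array of its group varies like the others.

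CXCL1 and CXCL2 passed the threshold in 9 of 12 alternatives and CXCL8 in 8, and CCL20 in 5. CXCL1 and CXCL2 missed it with the offset and without either TGF-beta array, and CXCL8 also with the mean of its 9 probe sets (0.28). In that mean 7 of the 9 probe sets are dim, and whether they measure CXCL8 could not be checked here. CXCL1 and CXCL2 have 1 probe set each, so this alternative left their values as they were. With the offset, limma called 0 member probe sets (3846 of all probe sets with unadjusted p below 0.05). The log2 difference of CXCL2 was then 1.05 in place of 1.39. Across all 12 alternatives the values of CXCL8, CXCL1, CXCL2 and CCL20 were positive, and outside the averaged CXCL8 value they stayed at 1.20 to 1.41 (brightest CXCL8 probe set), 1.14 to 1.37, 1.05 to 1.53 and 0.56 to 0.69. Calls of CXCR4 and CD14 were lost without either TGF-beta array, that of CD14 also with the offset. IRAK1, CEBPD and VCAM1 were lost in those 3 fits, under quantile normalization and without dim probe sets, CEBPD also with the mean of its probe sets (0.39) and VCAM1 also without untreated array 1 (-0.65). APOA1 lost its call in 6 of 12 alternatives, the 5 that ended that of IRAK1 and the fit without untreated array 1, at values of 0.66 to 0.83. The cause was not tested. Signal near background limits CXCL3, CXCR1, CXCR2 and the dim chemokines. The chemokine genes were chosen on the TGF-beta comparison, so the passes counted here for CXCL8, CXCL1, CXCL2 and CCL20 carry no test.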
